A study of Saccharomyces cerevisiae with 12 samples.

Results

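The messenger RNAs of wild-type budding yeast were compared between the cytoplasmic fraction and the total lysate, gene by gene. The comparison rests on 6 of the 12 libraries of the series: 3 of total lysate and 3 of the cytoplasm, numbered as replicates 1 to 3 in both fractions. The cells carried the strain label BY4741 and the genotype label wild type and were held at 37 °C for 1 h, a shift that the second strain of the series (the temperature-sensitive double mutant mex67-5 xpo1-1, labelled with the same strain background) received as well. Cell walls had been digested before the shift. The lysate sample was drawn from the warm culture, after which the remaining cells were chilled on ice, opened in a Ficoll buffer and spun at low speed, and the supernatant was kept as the cytoplasm. The pellet was not analysed here, so "lower in the cytoplasm" below stands for a smaller share of the cytoplasmic library than of the total library, with everything that did not stay in the supernatant on the other side.

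An mRNA leaves the yeast nucleus through the pore with the help of export receptors, of which Mex67 serves most messages and Xpo1 carries proteins and several ribonucleoprotein particles. In the cytoplasm, messages for secreted and membrane proteins are bound to the surface of the endoplasmic reticulum (ER) while they are translated, because the first hydrophobic segment of the new protein is recognised by the signal recognition particle. Messages for soluble proteins are mostly translated on free ribosomes.

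Strand had to be settled first. The extraction label calls the kit non-stranded, yet the deposited counts were not symmetric. For 1093 of 1190 mRNAs with no gene on the other strand, the total lysates showed a higher count density over the feature annotated opposite to the mRNA than over its own, with a median log2 ratio of 5.38. Each mRNA was therefore read from the opposite-strand feature that covers at least 0.5 of it, called its counterpart below, and its antisense signal from its own feature. Of 6692 annotated mRNAs, 3163 had such a counterpart and 2930 of those had a mean count above 40 and were tested; the others were not analysed here. Of the tested counterparts, 674 also lie over another gene on the strand of the mRNA, and such a value can hold reads of both genes; where values are given for such an mRNA below, it is called a shared counterpart.

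The libraries held 25566779 to 37361004 counts. Spearman correlations were 0.988 to 0.993 among total lysates, 0.968 to 0.988 among cytoplasmic libraries and 0.945 to 0.966 between the fractions, all across features. As a check of the fractions, 16 of 21 tested small nuclear and nucleolar RNAs fell in the cytoplasm and none rose, with a median log2 fold change of −1.17. The U5 small nuclear RNA SNR7-L had 792 to 981 CPM (counts per 1000000 counts of the scaled library, the unit of level used throughout) in the total lysates and 57.7 to 92.1 CPM in the cytoplasm. Of the cytosolic ribosomal RNAs, RDN37-2 rose from 36.5–70.0 CPM in total to 127–175 CPM in the cytoplasm (log2 fold change 1.60, adjusted p = 0.00409). RDN18-1 rose by 1.88 on the log2 scale (adjusted p = 0.00593), from only 0.534–1.31 CPM in total. SCR1, the RNA of the signal recognition particle, is a cytoplasmic RNA too and nevertheless had a log2 fold change of −1.43 (adjusted p = 0.00324). The cytoplasmic RNAs of the check thus went both ways.

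The strain label did not match the mating-type markers in these libraries. STE3, the receptor for a-factor that only MATalpha cells make, had 3301 to 8551 counts, whereas STE2, the receptor made by MATa cells such as BY4741, had 87 to 311. Per kilobase of counterpart the total lysates averaged 155 RPKM (CPM divided by length in kilobases) for STE3 and 1.78 RPKM for STE2. MET17, which BY4741 lacks, had 1040 to 3488 counts. HIS3, which carries a deletion in BY4741 and whose counterpart is shared with YOR203W, had 329 counts in total replicate 1 and 11 to 44 in the other wild-type libraries, against 10909 to 20357 in the mutant. The study's strain list gives the mutant as mex67::HIS3, so the HIS3 counts of the mutant do not bear on the wild-type label. "Wild type" below means the libraries so labelled. No spike-in is described in the methods, so a value is a share of its library, and fewer molecules of 1 RNA cannot be told apart from more of all others.

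Across the 2930 mRNAs, 650 were higher in the cytoplasm (22.2%) and 597 were lower (20.4%) at an adjusted p under 0.05, with a median log2 fold change of −0.01. Over all 11976 tested features 39.8% were called, 22.3% higher and 17.6% lower. The 3 cytoplasmic libraries lay above all 3 total lysates for 805 mRNAs (27.5%) and below all 3 for 820 (28.0%). This count was not made over all features, so these shares do not set mRNAs apart from other features. The split depended on the scaling: with library totals in place of TMM (trimmed mean of M values) factors the median of all features moved from 0.02 to 0.16, and 851 mRNAs were higher and 353 lower, so that 70.7% of the calls were upward in place of 52.1%. The main calls, 650 and 597, came from a fit without a replicate term. The fit that pairs same-numbered libraries called 840 higher and 875 lower, so its balance was the other way. Changes are therefore best read against the median. Single libraries also moved the counts: without cytoplasm replicate 3, 412 were higher and 375 lower, and without total replicate 3, 380 were lower. Counterparts that cover at least 0.8 of the mRNA gave 366 higher and 192 lower of 1317.

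Most of the largest increases were found for mRNAs of membrane and cell-surface proteins. Among the 12 mRNAs with the largest increase, 9 encode a protein with a hydrophobic stretch of the kind defined below. Among the 12 with the largest decrease 5 do, 4 do not and 3 were not scored, and over all scored mRNAs 730 of 2903 do. HSP30 (YCR021C, sacCer3 chromosome III, 155834 to 157218, minus strand) encodes a stress-induced plasma membrane protein that lowers the activity of the proton pump Pma1. It had 147, 348 and 164 CPM in total lysates 1 to 3 and 650.1, 4479 and 2354 CPM in the cytoplasmic libraries. All cytoplasmic values were above all total values, as the choice of the 12 required, but they spread widely. The log2 fold change of 3.51 ± 0.67 (SE, adjusted p = 0.00633) was 2.78 without cytoplasm replicate 2. MTL1, a sensor of cell wall stress on the plasma membrane (chromosome VII, 529027 to 531383), had 5.4, 5.93 and 4.8 CPM in total and 29.97, 36.3 and 31.9 CPM in the cytoplasm, a 6.08-fold difference of means with little spread on either side (log2 fold change 2.61 ± 0.14, adjusted p = 7.21e-05). YCR061W, annotated as Tvs1p (chromosome III, 225498 to 227941), rose from 68.5, 96.5 and 91.6 CPM to 301, 381 and 446 CPM.

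Transporters and wall proteins followed. TPO2, a polyamine exporter, had 131, 129.6 and 224 CPM in total and 664, 583 and 839 CPM in the cytoplasm, although only 68.6% of its 50-base words occur once in the genome and reads could be shared with its paralog. PDR12, the exporter of weak organic acids, had 782, 779.9 and 839.9 CPM in total against 3181, 2592 and 3147 CPM (log2 fold change 1.89 ± 0.13, adjusted p = 0.000309). YGP1, a secreted glycoprotein, rose from 842, 1901 and 1774 CPM to 4678, 6322 and 7886 CPM. For each of these mRNAs the fractions did not overlap, as the choice of the 12 required. DAN4, a cell wall mannoprotein, had 9.08 to 11.5 CPM in total and 41.9 to 43.0 CPM in the cytoplasm, and MUC1, the flocculin of the cell surface (product Flo11p), had 1.86 to 2.07 CPM and 6.57 to 8.14 CPM. The choice of the 12 required at least 5 CPM in the higher fraction, which MUC1 reached only in the cytoplasm. RTN2, a reticulon of the ER, rose by 1.98 ± 0.44 on the log2 scale from 59.8–153 CPM in total to 201–571 CPM. SLS1, a protein of the mitochondrial inner membrane that acts in the expression of mitochondrial genes, had no hydrophobic stretch by the definition used here and rose by 1.96 ± 0.15.

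The remaining pair of the 12 is uncertain. YHR054C had the largest fitted increase (4.42 ± 0.69, and 3.46 without cytoplasm replicate 2), from 0.372–1.15 CPM to 7.28–35.1 CPM, but its gene lies in the repeated CUP1 locus, none of its 50-base words is unique and its counterpart also lies over CUP1-2. It too reached 5 CPM only in the cytoplasm, and its fold change rests on few counts in total. YGR109W-B, a Ty3 retrotransposon gag-pol gene, rose by 1.87 with 32.5% unique words and a shared counterpart. In all, 5 of the 12 largest increases and 0 of the 12 largest decreases have under 90% unique 50-base words. Among the 2909 tested mRNAs in the reference, 95 do.

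**Figure D1:**
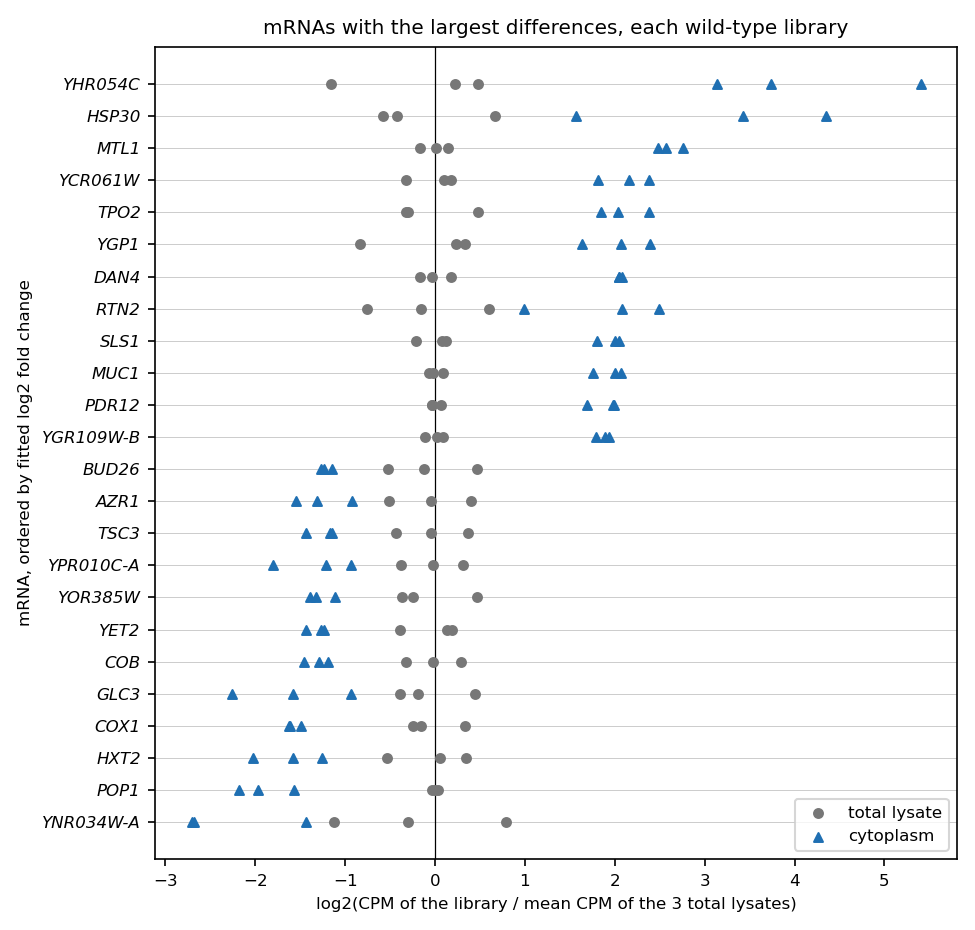
Each row is 1 of the 24 mRNAs with the largest increase or decrease, and each point is 1 wild-type library (grey circles, total lysate; blue triangles, cytoplasm) on a log2 scale relative to the mean CPM of the 3 total lysates. The fractions do not overlap in any row, as the choice of the genes required, and HSP30 and YHR054C show the widest spread among cytoplasmic libraries.

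Among abundant mRNAs the rise was led by PMA1, the plasma membrane proton pump. PMA1 had 12821, 13360.1 and 15168 CPM in total and 38648, 33381 and 45363 CPM in the cytoplasm, a 2.84-fold difference of means (log2 fold change 1.51 ± 0.16, adjusted p = 0.0014); its counterpart is shared with the open reading frame YGL007C-A. SED1, an abundant cell wall protein whose counterpart is shared with RAD55, rose from 969–1265 CPM to 2780.0–3035 CPM. URA2, the first enzyme of pyrimidine synthesis (0.49 ± 0.15), and MRH1, a membrane protein related to Hsp30 (0.34 ± 0.12), were also called higher, but URA2 lost its call in 7 of 16 alternative settings and MRH1 in 8 of 17, and the counterpart of URA2 is shared with AIM23.

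The largest decreases were of mixed function. YNR034W-A, annotated as Ego4p, had 50.1, 189 and 88.4 CPM in total and 17.0, 40.3 and 16.7 CPM in the cytoplasm (log2 fold change −2.14 ± 0.52, adjusted p = 0.0151); without cytoplasm replicate 3 the adjusted p was 0.065, and without total replicate 2 the fold change was −1.49. HXT2, a glucose transporter of high affinity (chromosome XIII, 288030 to 289913), fell from 291, 158 and 238 CPM to 95.9, 76.8 and 56.3 CPM (−1.59 ± 0.26, adjusted p = 0.00392), and AZR1, a transporter linked to azole resistance, fell from 264, 141 and 194 CPM to 80.4, 68.4 and 105 CPM. These are membrane proteins with 7 and 9 predicted internal stretches, so their direction was opposite to that of most such mRNAs. GLC3, the glycogen branching enzyme, fell by 1.49 on the log2 scale, from 214–381 CPM to 58.7–147 CPM, with an adjusted p of 0.053 without cytoplasm replicate 3.

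Short mRNAs were frequent among the remaining decreases. TSC3, an activator of serine palmitoyltransferase with a coding length of 243 bases, had 28.9 to 50.2 CPM in total and 14.4 to 17.6 CPM in the cytoplasm, read from a counterpart shared with AKL1. YPR010C-A (219 coding bases, product Mra1p, counterpart shared with YPR011C) fell by 1.26 and YET2, an ER membrane protein (483 coding bases), by 1.30 on the log2 scale. YOR385W, an uncharacterised protein, had 50.6 to 90.03 CPM in total and 24.9 to 30.2 CPM in the cytoplasm, and the open reading frame BUD26 fell by 1.21. POP1, a protein of ribonucleases P and MRP, was listed at −1.88, but its counterpart also spans SNR19, the U1 small nuclear RNA, so the value cannot be assigned to the mRNA.

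Messages made inside mitochondria were depleted in the supernatant. All 6 tested mitochondrially encoded mRNAs fell, with a median log2 fold change of −1.005. COX1, a subunit of cytochrome c oxidase, had 8617, 12072 and 8058 CPM in total and 3096, 3132 and 3402 CPM in the cytoplasm (−1.58 ± 0.18, adjusted p = 0.00149). COB, cytochrome b, fell from 1167–1780.2 CPM to 531–638 CPM, and ATP6, of the ATP synthase, from 121–189 CPM to 62.7–90.1 CPM. The mitochondrial ribosomal RNAs behaved alike: 21S_RRNA fell by 1.15 and 15S_RRNA by 0.83 on the log2 scale. The counterparts of COX1 and COB span their introns and the reading frames inside them, and the calls of COB and ATP6 were lost, at adjusted p of 0.084 and 0.262, when the spread was estimated from all 12 libraries.

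The gene groups were read from the same fit, each as a count of its tested members and a median, beside the 22.2% higher and 20.4% lower of all mRNAs. They were listed with earlier results of these data known and carry no test of their own. Of 15 tested genes of ER translocation, glycosylation and folding, 13 rose and none fell, with a median log2 fold change of 0.80. SEC61, the channel that passes new proteins into the ER, had 166, 141 and 147 CPM in total and 349, 227 and 309.7 CPM in the cytoplasm (0.96 ± 0.17, adjusted p = 0.00494). ERO1, the oxidase that drives disulphide formation, rose from 89.4–101 CPM to 201–279.6 CPM, and JEM1, a DnaJ-like chaperone of the ER lumen, from 13.6–15.7 CPM to 22.5–31.7 CPM. The other members that rose were LHS1 and SIL1, which serve the ER chaperone Kar2, the protein mannosyltransferases PMT1, PMT3, PMT5 and PMT6, the oligosaccharyltransferase subunits OST1 and WBP1 (the latter from a counterpart shared with IRC22), and SEC63 and SSH1 of the translocon.

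Of 12 tested genes for vacuolar hydrolases and vacuolar membrane transport, 9 rose and none fell (median 0.82). ATH1, the acid trehalase, had 63.4, 101 and 83.6 CPM in total and 209.8, 266 and 294 CPM in the cytoplasm. YPK9, a vacuolar P-type ATPase, rose from 114–136 CPM to 226–282 CPM, and VCX1, the vacuolar calcium and proton exchanger, from 107–114 CPM to 198–255 CPM, the latter from a counterpart shared with YDL129W. PEP4, CPS1, APE3 and DAP2, which encode vacuolar proteases and peptidases, were also called higher.

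Of 43 plasma membrane transporters, 17 rose and 4 fell (median 0.48). Besides TPO2 and PMA1, TPO1, a second polyamine exporter, rose from 26.3–28.0 CPM to 81.2–115 CPM (1.77 ± 0.16, adjusted p = 0.000741). SUL1, a sulphate permease, rose from 0.45–0.759 CPM to 1.4–4.2 CPM. The total lysates of SUL1 held fewer counts than the minimum mean count. SUL1 therefore passed the minimum through the cytoplasmic libraries, and its fold change rests on few counts in total. The 4 that fell were HXT2, PHO89, JEN1 and SNQ2, which carry hexoses, phosphate, lactate and drugs, and the counterpart of SNQ2 is shared with GAL3. Among the 14 mRNAs that the She2 protein carries to the bud tip, 7 rose and none fell (median 0.48), including MID2, a wall sensor (22.3 to 26.1 CPM against 48.1 to 53.8 CPM), IST2, a tether between the ER and the plasma membrane (295 to 353 CPM against 549 to 616 CPM), and TPO1.

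The cell wall list did not follow the secretory lists. Of 30 tested members 5 rose and 2 fell, with a median of 0.03 whose sign changed in 6 of 17 alternative settings. PST1, a glycosylphosphatidylinositol-anchored wall protein, rose from 223, 299.7 and 367 CPM to 1016, 925 and 1032 CPM, and BGL2, a wall glucan transferase with a counterpart shared with YGR283C, from 616–632 CPM to 1185–1506 CPM. DSE2, a daughter-specific wall protein, and CTS1, the chitinase of cell separation, were lower, with 96.2 to 146 CPM against 57.8 to 72.2 CPM for DSE2 (−0.89 ± 0.17, adjusted p = 0.00657) and 211 to 284 CPM against 138 to 186 CPM for CTS1, which lost its call in 3 alternative settings.

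Membrane proteins were not all on the upper side. Of 7 tested subunits of the vacuolar proton ATPase, 5 fell and 1 rose, with a median of −0.48, which was 0.10 among the counterparts that cover 0.8 of the mRNA. VMA8, a subunit of the soluble sector, fell from 148–177 CPM to 77.2–90.9 CPM. The member that rose, STV1, encodes a membrane subunit, from 98.0–104 CPM to 134–183 CPM. In vesicle traffic, 11 of 26 fell and 1 rose: YKT6, a SNARE without a membrane-spanning stretch, fell from 78.0–82.0 CPM to 40.5–46.5 CPM, and SEC16, the large scaffold of ER exit sites, rose from 266–314 CPM to 429–609.5 CPM. In ergosterol synthesis 3 rose (HMG2, ERG25, ERG4) and 6 fell (ERG26, ERG1, ERG10, IDI1, ERG20, ERG12). ERG25 and ERG4 each lost the call in 7 of 16 alternative settings, and the counterparts of ERG1, ERG10 and ERG20 are shared with ATF2, SUV3 and QCR8. The median of that list was −0.35, but it was 0.57 over counterparts that lie over no other gene on the mRNA strand.

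**Figure D2:**
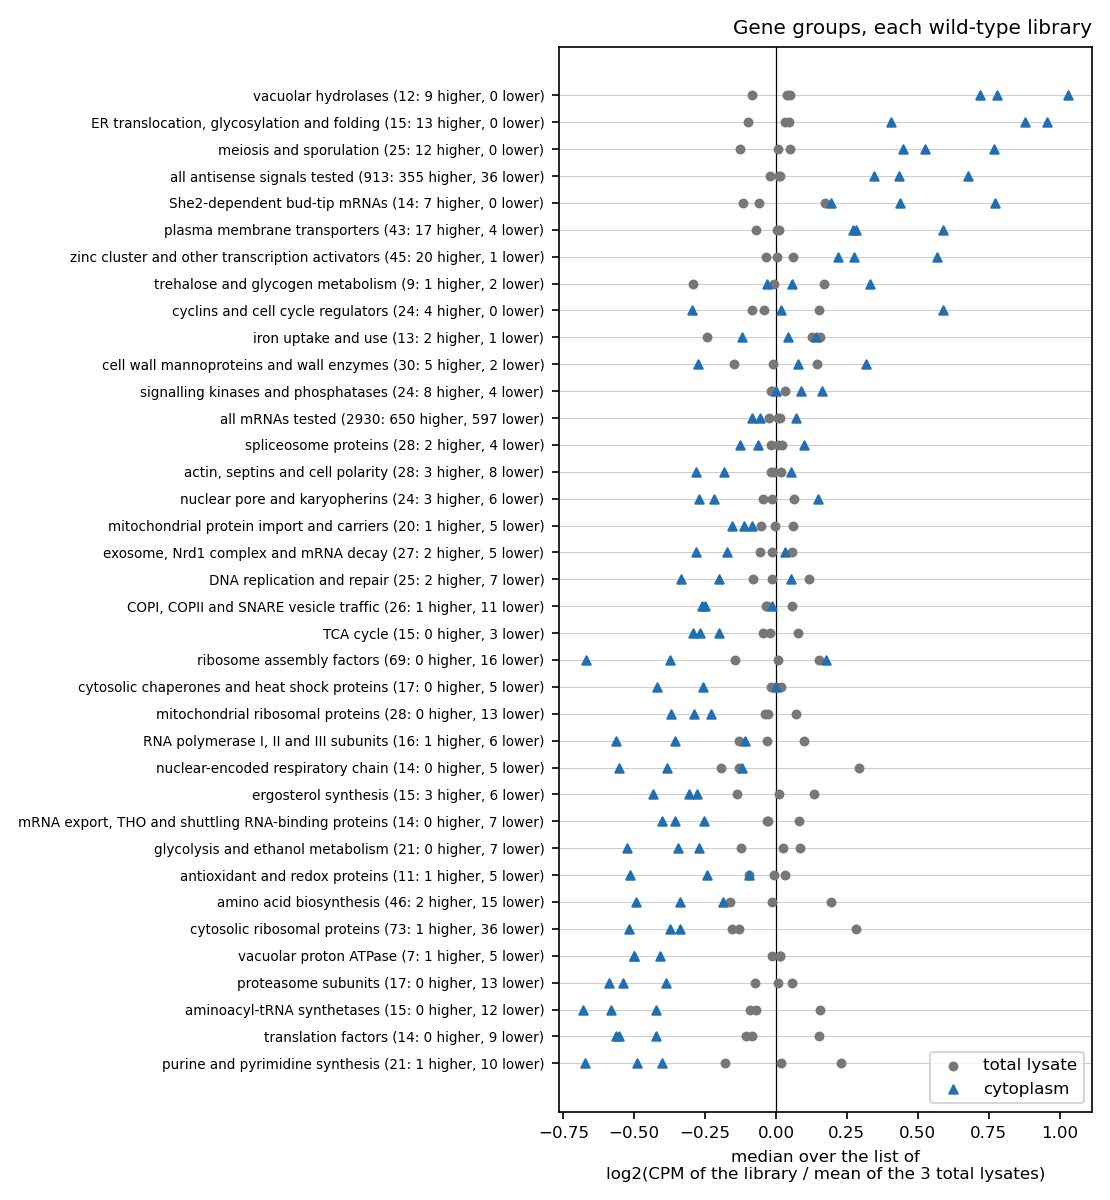
Each row is a gene group with at least 7 tested members (the number tested and called is in the label), and each point is the median over the group of log2(CPM in a library relative to the 3 total lysates), with total lysates as grey circles and cytoplasm as blue triangles. The cytoplasmic medians lie at 0.72 to 1.03 for the vacuolar hydrolases, at 0.41 to 0.96 for ER translocation, glycosylation and folding, and at −0.67 to −0.40 for purine and pyrimidine synthesis at the lower end.

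Of 45 tested transcription activators and related factors, whose products are soluble, 20 rose, 1 fell and 24 were not called (median 0.37). CYC8, a general corepressor, had 77.2, 68.1 and 67.9 CPM in total and 154, 125 and 135 CPM in the cytoplasm (0.96 ± 0.12, adjusted p = 0.00215), and GAL4, the activator of galactose genes, 15.6 to 19.4 CPM against 30.8 to 38.9 CPM, from a counterpart shared with GYP5 and YPL247C. INO4, which encodes a short activator of phospholipid genes, was the member that fell, from 11.9–15.1 CPM to 6.72–8.45 CPM. Among 24 signalling kinases and phosphatases 8 rose, 4 fell and 12 were not called. The median of 0.01 changed sign in 6 of 17 alternative settings. The 8 included the kinases RIM15 (1.28 ± 0.12, from 81.6–101 CPM to 215–234 CPM) and SCH9 (1.16 ± 0.21, counterpart shared with MNL1), the adenylate cyclase CYR1 (0.83 ± 0.16), and TOR1 and TOR2, the latter from a counterpart shared with MNN4. The phosphatase catalytic subunit GLC7 was among the 4 that fell (−0.78 ± 0.14, adjusted p = 0.00481).

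Of 24 cyclins and cell cycle regulators, 4 rose (16.7%, under the 22.2% of all mRNAs) and none fell, with a median of 0.15 that fell below 0 without cytoplasm replicate 1. FKH2, a forkhead factor of mitotic genes, rose from 48.0–60.9 CPM to 91.7–161 CPM, and CDC15, a kinase of mitotic exit, from 19.5–20.7 CPM to 35.9–41.2 CPM. Genes of meiosis and sporulation are scarcely expressed in growing cells, and only 25 of the 33 with a counterpart passed the count minimum. Of these, 12 rose and none fell (median 0.70): MEK1, a meiotic kinase, had 0.956 to 1.33 CPM in total and 2.05 to 4.67 CPM in the cytoplasm. GAS4, a glucan transferase of the spore wall, had 0.619 to 1.04 CPM and 1.48 to 3.94 CPM, but its difference was −0.08 when a counterpart with only 0.5 of its length inside the mRNA was accepted. A list filtered in this way can keep a member because of its level in 1 fraction, and the share of passing members that rose has to be read with that limit.

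Several lists of protein synthesis and turnover had more decreases than increases. Of 73 tested cytosolic ribosomal protein genes, 36 fell and 1 rose (median −0.42). RPL23B had 299, 311 and 232 CPM in total and 141, 141 and 161 CPM in the cytoplasm (−0.93 ± 0.14, adjusted p = 0.00324), and RPS18B had 554 to 755 CPM against 364 to 405 CPM. RPL35A, which rose by 0.75, has 79.9% unique words and a paralog of near-identical sequence. Of 15 aminoacyl-tRNA synthetases, 12 fell and none rose (median −0.51), with THS1, which charges threonine tRNA, at 802, 707 and 701 CPM in total and 412, 400.4 and 435 CPM in the cytoplasm (−0.83 ± 0.11, adjusted p = 0.00246), and HTS1, for histidine, at 170.0 to 202 CPM against 98.5 to 119.9 CPM. Of 14 translation factors, 9 fell and none rose (median −0.52). Among the 8 whose counterpart lies over no other gene on the mRNA strand, 3 fell, with a median of −0.35. Of those that fell, TEF1, TIF1 and EFT1 have 28.4%, 37.7% and 22.5% unique words, so their reads could be shared with other genes. The release factor SUP45 had 184 to 214 CPM in total and 113 to 125 CPM in the cytoplasm. YEF3, the elongation factor specific to fungi, was among the most abundant of all mRNAs that fell, from 7755–9748 CPM to 5046–6353 CPM, with a counterpart shared with SSP120 and an adjusted p of 0.057 without cytoplasm replicate 3.

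Of 17 proteasome subunits, 13 fell and none rose (median −0.51). PRE3, which carries a catalytic site, had 83.1, 83.2 and 79.8 CPM in total and 46.7, 53.6 and 52.6 CPM in the cytoplasm (−0.69 ± 0.11, adjusted p = 0.00342), and the lid subunit RPN8 had 104 to 123 CPM against 68.8 to 77.1 CPM. Of 69 ribosome assembly factors, 16 fell and none rose (23.2%, close to the 20.4% of all mRNAs), led by LOC1 (−1.11 ± 0.16). Mitochondrial ribosomal proteins, which are made in the cytosol and imported, had 13 of 28 lower and none higher (median −0.31). Of 14 mRNA export factors and shuttling RNA-binding proteins, 7 fell and none rose, among them SUB2, the helicase of the export complex (429 to 514 CPM against 271 to 295 CPM, counterpart shared with NDE2). The median of that list was −0.35, and 0.14 over counterparts that cover 0.8 of the mRNA.

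The metabolic lists differed. Of 21 genes of purine and pyrimidine synthesis, 10 fell and 1 rose (median −0.56): ADE12, adenylosuccinate synthase, had 365, 253 and 328 CPM in total and 188, 140.4 and 176 CPM in the cytoplasm, and the exception was URA2, whose coding length is 6645 bases. In amino acid synthesis 15 of 46 fell and 2 rose (MET5 and MET10, median of the list −0.40); MET10 lost its call in 5 of 17 alternative settings and MET5, whose counterpart is shared with TTI2, in 1 of 16. Of 21 genes of glycolysis and ethanol metabolism, 7 fell and none rose (median −0.37). In the TCA cycle 3 of 15 fell and none rose (median −0.20). In trehalose and glycogen metabolism 2 of 9 fell and 1 rose (median 0.17). The shares of the TCA cycle list and of the trehalose and glycogen list that fell were close to the 20.4% of all mRNAs. The trehalose and glycogen member that rose, ATH1, is also counted among the vacuolar hydrolases. PGK1, phosphoglycerate kinase, had 7776, 9004 and 9525 CPM in total and 5273, 5867 and 5968 CPM in the cytoplasm (−0.62 ± 0.13, adjusted p = 0.00916). GPM1, phosphoglycerate mutase, had 5253 to 6013 CPM against 3442 to 3820.1 CPM. ADH1, alcohol dehydrogenase with 87.8% unique words, fell by 0.59, and FBA1, aldolase, fell by 0.37 with a call that was lost in 9 of 17 alternative settings. The cytosolic chaperone list, with 5 of 17 lower and none higher, did not share the direction of HSP30.

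The difference between the upper and lower groups was next described by what the mRNAs encode. A protein was given an N-terminal stretch where a window of 15 residues within its first 35 had a mean hydropathy of at least 1.8, and an internal stretch where a window of 19 residues further on did, so that the first resembles a signal peptide and the second a membrane-spanning segment. Of 2903 tested mRNAs that could be scored, 730 had a stretch of either kind, and 316 of those were higher (43.3%) and 52 lower (7.12%), with a median log2 fold change of 0.36. The 2173 without any stretch had 331 higher (15.2%) and 535 lower (24.6%), with a median of −0.12. Both kinds together gave a median of 0.51 over 123 mRNAs, an internal stretch alone 0.33 over 478 and an N-terminal stretch alone 0.30 over 129. The share called higher went from 28.6% with 1 internal segment to 47.3% with 2 to 3 and 63.2% with 4 to 6; it was 58.2% with 7 to 9, and 9 of 10 mRNAs with 10 or more were higher.

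At the level of codons a hydrophobic stretch can be read from the sequence itself, because all codons with T in the middle position encode phenylalanine, leucine, isoleucine, methionine or valine. The coding bases 16 to 45 (codons 6 to 15) of 10 mRNAs are shown from RefSeq, assembly R64, which has the coordinates of sacCer3, with the codons that have a middle T in capitals. They were picked to show both the pattern and its exceptions. The first 5 were higher in the cytoplasm: MUC1 (chrIX:393631-393660, minus strand), YGP1 (chrXIV:336560-336589, plus), JEM1 (chrX:303196-303225, plus), SEC61 (chrXII:877134-877163, minus) and MTL1 (chrVII:529279-529308, plus). SEC61 and MTL1 have internal stretches only, which lie farther inside than these codons. The capitals shown for SEC61 are therefore not part of a scored stretch. GLC3 (chrV:133135-133164, plus), THS1 (chrIX:212514-212543, plus), PRE3 (chrX:435178-435207, plus) and RPN8 (chrXV:816887-816916, minus) were lower and have no stretch, and YET2 (chrXIII:350396-350425, plus) was lower although it has both kinds.
MUC1: CTACTCgcttatTTGGTCCTTtcgCTTCTA
YGP1: GTTTTAtctgccCTTTTGgcatgttcatct
JEM1: ggatactgtCTTTTAGTGtatagcGTTATT
SEC61: GTTCTAgacTTGTTTaagccaTTTgaatct
MTL1: ccgaccaggaagaagagctctgcttcaagc
GLC3: gataatGTCaaaggggctGTAgaaTTTgat
THS1: gcaggtGTCactgagcaaGTCaaaaagCTG
PRE3: GTGgacATCaatcgtTTGaaaaagggcgaa
RPN8: gagaaaGTTaccATTgcaccaCTAGTTTTG
YET2: gcaGTACTCTTTtcgTTACTGGTCATCgaa
MUC1 and YET2 have 7 such codons of 10, JEM1, SEC61 and RPN8 have 5, YGP1 has 4, GLC3, THS1 and PRE3 have 3, and MTL1 has 0. The count in this window overlapped between the directions: the higher mRNAs PDR12, RTN2 and HSP30, with internal stretches, have 2, 1 and 3, and the lower mRNAs PUP3, HTS1 and YNR034W-A, with none, have 5, 4 and 4. Over all scored mRNAs, 55 of 139 with 6 or more were higher (39.6%) and 15 were lower, with a median of 0.35, whereas the medians for 0 to 1, 2 to 3 and 4 to 5 such codons were 0.07, −0.06 and −0.05.

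Length moved with the result as well. In quintiles of coding length, from 114 to 825 bases at the short end to 2370 to 14733 bases at the long end, the median log2 fold change was −0.35, −0.15, −0.04, 0.11 and 0.35. The number called higher went from 45 of 585 to 251 of 581, and the number called lower from 228 to 22. Both features were seen together: within the quintiles the mRNAs with a stretch had medians of −0.02, 0.39, 0.45, 0.42 and 0.56 and those without had −0.39, −0.24, −0.19, 0.03 and 0.30. The gap between them was smallest in the longest quintile. The shortest mRNAs with a stretch were thus near 0, and 22 of 135 were lower, the class to which TSC3 and YET2 belong. The gene groups differed in length too: the median coding length was 438 bases for cytosolic ribosomal proteins and 825 for proteasome subunits, against 1938 for ER translocation, glycosylation and folding and 2142 for transcription activators. The aminoacyl-tRNA synthetases, which were lower, had a median of 1824 bases. The part of length in the group differences was not tested.

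**Figure D3:**
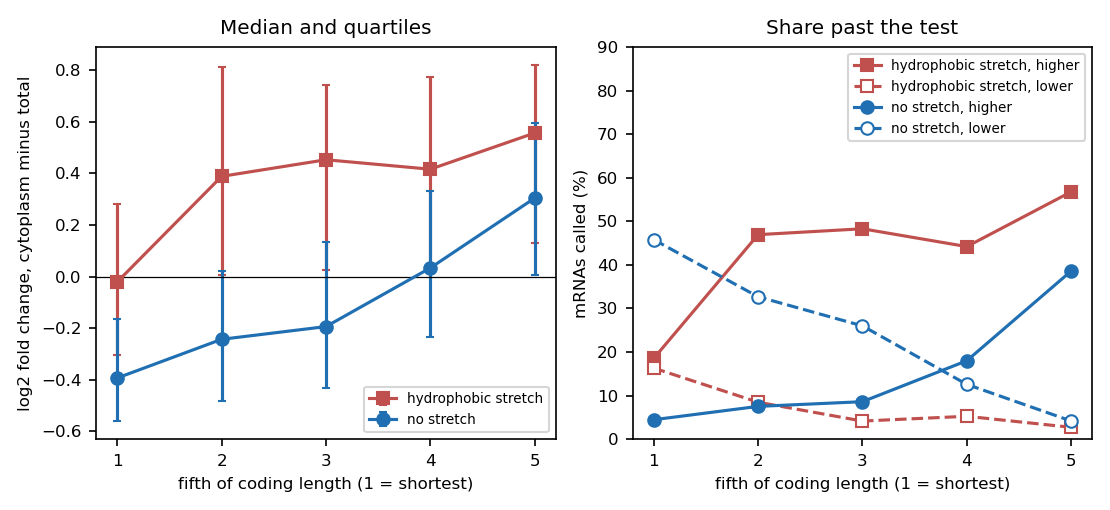
Left, the median log2 fold change (error bars, quartiles over mRNAs) in each quintile of coding length, for mRNAs whose protein has a hydrophobic stretch (red squares) and those without (blue circles); right, the percentage called higher (solid, filled) and lower (dashed, open). The red median lies above the blue median in all 5 quintiles, from −0.02 against −0.39 in the shortest to 0.56 against 0.30 in the longest.

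The difference by stretch was present at every level of mRNA. In quintiles of mean CPM in total, mRNAs with a stretch had medians of 0.35, 0.26, 0.34, 0.44 and 0.44 and those without had 0.00, −0.10, −0.07, −0.14 and −0.32, so that the most abundant mRNAs without a stretch had the lowest median. In that quintile 163 of 429 were lower (38.0%). Messages with 2 or more coding exons had 31 of 155 higher and 54 lower (median −0.31), but ribosomal protein genes make up much of this class: the 50 that are ribosomal protein genes had a median of −0.45, against −0.40 for 23 ribosomal protein genes with 1 coding exon, and the 105 others had −0.15 with 30 higher and 26 lower. Within 20 kb of a chromosome end 27 of 81 mRNAs were higher (33.3%) and 7 lower, with a median of 0.25, against −0.02 for the 2822 farther inside.

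The antisense signals of the same genes were called higher more often than lower. Antisense transcripts in yeast are mostly noncoding, arise from the opposite strand of genes and are often short-lived. Of 2661 genes whose own feature could be read as antisense, 913 passed the count minimum; 355 rose (38.9%) and 36 fell (3.94%), with a median log2 fold change of 0.50, and 522 were not called. A scarce antisense signal can pass the minimum through the cytoplasmic libraries in which it is high, so these shares hold only for the signals that passed: without a minimum 729 of 2606 were higher (28.0%) and 71 lower. The medians of the 3 cytoplasmic libraries relative to total were 0.35 to 0.68. The count leaned on cytoplasm replicate 2, as 166 of 750 were higher without it and the median was 0.29; without cytoplasm replicate 3, 205 were higher and 21 lower. Without total replicate 1 or 3, 23 and 15 were lower.

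Of 146 antisense signals whose sense mRNA rose, 66 rose too (45.2%); of 89 whose sense mRNA fell, 29 rose (32.6%); and of 298 whose sense mRNA was tested and not called, 101 rose (33.9%). The difference between these shares was not tested. Both strands fell at 4 genes. The 6 antisense signals with the largest increase were opposite MRPS17, GYP8, YNL010W, EMP70, BDP1 and OTU2. Their total lysates held only 0.0619 to 0.731 CPM, less than 40 counts, so they passed the minimum through the cytoplasmic libraries and their fold changes rest on few counts in total. That of MRPS17, which encodes a mitochondrial ribosomal protein (chromosome XIII, 636031 to 637114), had 0.112, 0.138 and 0.217 CPM in total and 1.21, 6.36 and 2.79 CPM in the cytoplasm (4.47 ± 0.70, adjusted p = 0.00346). That of YNL010W had 0.557 to 0.731 CPM and 3.0 to 15.9 CPM, while the mRNA of the same gene was lower in the cytoplasm by 0.87 on the log2 scale. That of OTU2 rose from 0.141–0.248 CPM to 1.37–3.52 CPM, with its mRNA at −0.52. In all 6, cytoplasm replicate 2 was the highest library, and without it the increase at YNL010W was 2.996 in place of 3.75.

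The 6 with the largest decrease were of another kind. YPR158C-C, YPR158C-D, YML045W-A and YLR256W-A are features of Ty retrotransposons with under 10% unique words, so that their reads cannot be placed. The antisense signal of EFT1, an elongation factor 2 gene with 22.5% unique words, fell from 2.0–6.62 CPM to 0.841–1.59 CPM, and its call was lost without cytoplasm replicate 3. The mRNA of EFT1 was lower too, by 0.54 on the log2 scale, with a mean of 396 CPM in total. That of AI2, a reading frame in an intron of mitochondrial COX1, fell from 4.92–9.1 CPM to 1.26–2.29 CPM. The counterpart of COX1, which spans AI2, was lower too, with a mean of 9582 CPM in total. Whether reads of the sense strand contributed to these antisense signals was not tested.

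**Figure D4:**
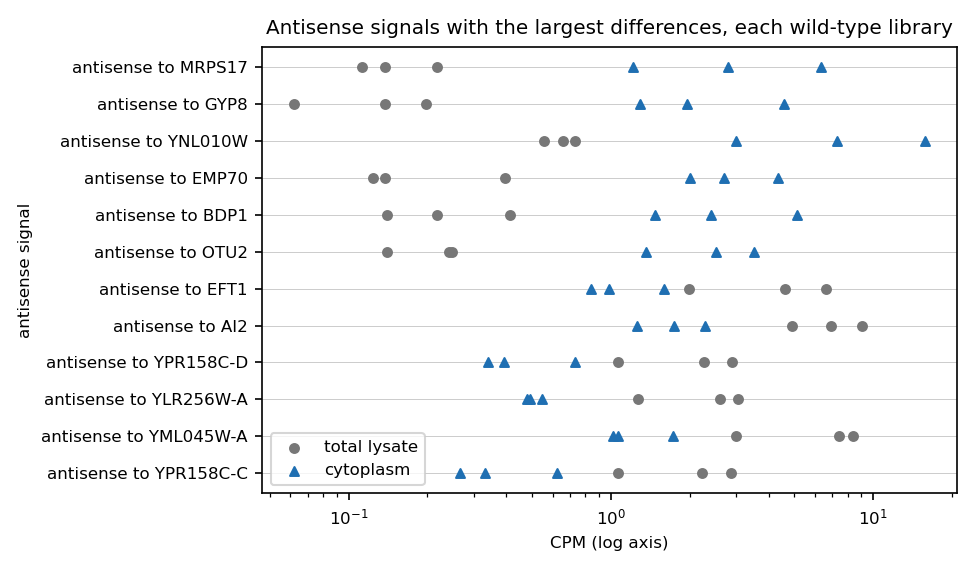
Antisense CPM (log axis) of the 12 genes with the largest antisense differences in each wild-type library, with total lysates as grey circles and cytoplasmic libraries as blue triangles. For the 6 genes that rose, from OTU2 to MRPS17, total lysates lie at or under 0.731 CPM and cytoplasmic libraries at or over 1.21 CPM.

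The wild-type ratios were last set beside those of mex67-5 xpo1-1, in which both export receptors carry temperature-sensitive alleles and which shares no library with the wild-type comparison. Of 646 mRNAs higher in wild type and tested in both strains, 461 were above 0 in the mutant (71.4%, against 34.0% of all 2918) and the median went from 0.71 to 0.29. Of 596 that were lower in wild type, 577 were below 0 in the mutant (96.8%, against 66.0% of all), with medians of −0.56 and −0.79. The median of all mRNAs was −0.01 in wild type and −0.26 in the mutant. Tested directly, the ratio of cytoplasm to total was lower in the mutant for 282 of 2927 mRNAs (9.63%) and higher for 106 (3.62%), against 5.68% and 4.57% of all 13145 features tested. The sum of both, 388, depended on single libraries: it was 252 or 231 without wild-type total replicate 2 or 3, 207 without wild-type cytoplasm replicate 3, 257 or 258 without mutant total replicate 1 or 2, and 205 or 215 without mutant cytoplasm replicate 1 or 2.

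The ratio of many secretory messages was smaller in the mutant, although not of all. ER translocation, glycosylation and folding genes had a median of 0.80 in wild type and −0.35 in the mutant, and the ratio was lower in the mutant for 12 of the 15. Transporters went from 0.48 to −0.26 with 12 of 43 lower in the mutant and 1 higher, and vacuolar hydrolases from 0.82 to 0.00 with 6 of 12 lower. The lists were drawn up with earlier results of these data known, and the strain test reuses the wild-type libraries. These directions may therefore follow in part from the choice of the lists. PMA1 had 10116 to 10978 CPM in the mutant total lysates and 7151 to 9764 CPM in the mutant cytoplasm, so that its difference between strains was −1.78 on the log2 scale (adjusted p = 0.00273). The surface proteins MTL1, MUC1, DAN4 and SED1 were higher in the mutant cytoplasm too, by 2.28, 1.96, 1.63 and 1.56 on the log2 scale, and PST1, YGP1, PDR12 and ERO1 by 0.73, 0.66, 0.57 and 0.55. By hydrophobic class, over the mRNAs tested in both strains, the median went from 0.51 to −0.09 with both kinds of stretch, from 0.32 to −0.12 with internal stretches alone and from −0.12 to −0.32 with none, so that the class with both kinds lay above the class with none in the mutant as well. Meiosis genes, by contrast, had 0.70 in wild type and 0.73 in the mutant, and transcription activators 0.37 and 0.25. Ribosomal protein genes were lower in both, at −0.42 and −0.87, with no member whose ratio differed between strains at the threshold; this does not show that the strains were alike.

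**Figure D5:**
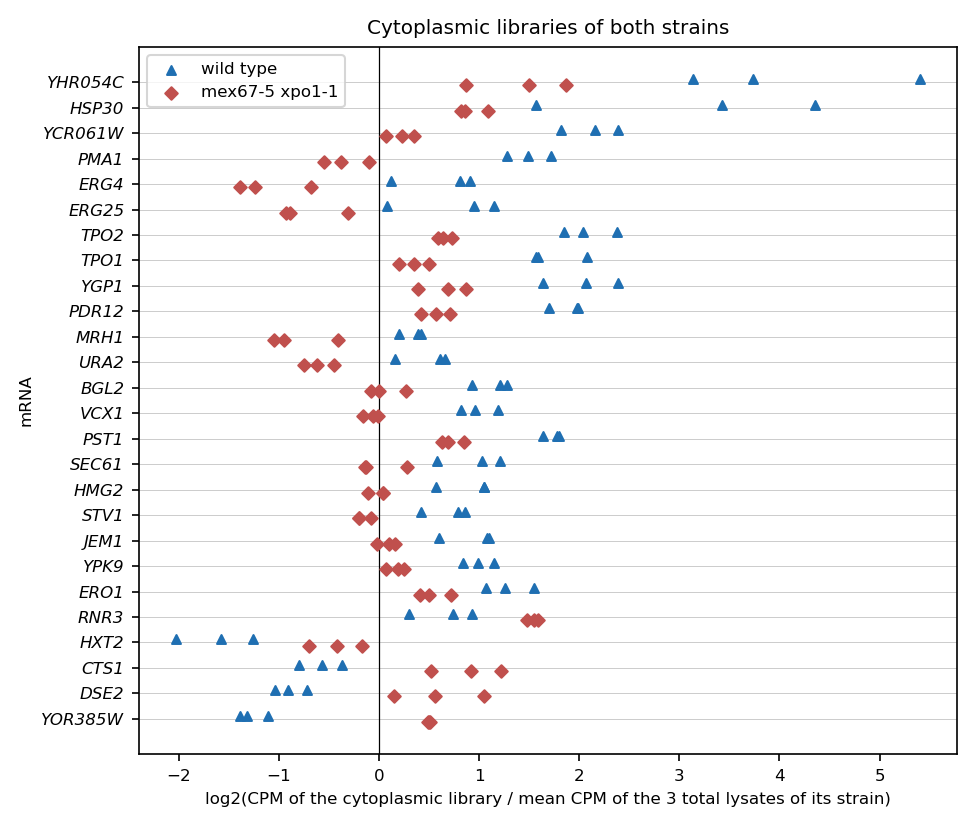
Log2 of the CPM in each cytoplasmic library relative to the mean of the 3 total lysates of the same strain, for the named mRNAs whose ratio differed between strains (blue triangles, wild type; red diamonds, mex67-5 xpo1-1). The fitted ratio was higher in wild type for all but 5 of these mRNAs, RNR3, HXT2, CTS1, DSE2 and YOR385W, and PMA1 is above 0 in every wild-type library and below 0 in every mutant library. The mRNAs were named by their wild-type ratios, so these directions follow in part from that choice.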

How the data were processed

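TruSeq mRNA libraries were sequenced as single 50-base reads. According to the study's methods and the submitters' processing notes, the authors demultiplexed with bcl2fastq 2.17.1.14, aligned to sacCer3 with STAR 2.5.2a and counted with featureCounts 1.5.0-p1 against Ensembl genes supplemented with untranslated regions and noncoding units. The deposited values are raw counts per feature of 1 library. Strand and overlap settings were not given in the sources used here, and overlapping features hold the same reads.

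Counts of 20619 features were read per library, and those averaging over 40 counts per wild-type library were tested with edgeR 4.0.16 (R 4.3.3): TMM factors, quasi-likelihood test of fraction, Benjamini-Hochberg adjustment over all features, threshold 0.05. Counterparts had at least 0.8 of their length inside the mRNA. CPM are counts per 1000000 counts of the TMM-scaled library total, RPKM divides by counterpart length, errors are standard errors of the fit. The strain difference was the interaction of strain and fraction over 12 libraries. DESeq2 1.42.0 and further settings were alternatives. The fit was run on simulated unpaired counts with 200 of 11833 features changed by 1 on the log2 scale. It recovered 81.5% of them, and 5.23% of its calls were false. In the data 39.8% of features were called, so this setting differs from the data.

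The main fit held fraction only, with no replicate term, so its calls and errors are unpaired. The replicate block, an alternative setting, pairs same-numbered libraries. Deviations of total and cytoplasm from their group means correlated at 0.36, 0.51 and 0.16 for replicates 1, 2 and 3. The labels give only the number. The study calls the replicates biologically independent. Named genes were the 12 largest changes per direction with non-overlapping libraries and at least 5 CPM in the higher fraction, the 6 most abundant called per direction, up to 3 called per direction and gene list, and 6 antisense signals per direction of at least 2 CPM; other list members are named without values. Members and lists were chosen with earlier results of these data known. Sequences, hydropathy and 50-base words came from RefSeq R64, in which 6000 of 6007 shared coding genes have the same coding length; mitochondrial genes were not scored, as the annotation runs past the reference chromosome.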

Additional observations from a re-analysis of the deposited data

Results flagged for a closer look

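For 26 mRNAs and 1 antisense signal named above, the cytoplasm to total ratio differed between wild type and mex67-5 xpo1-1 in the interaction test (edgeR, adjusted p under 0.05). Values are mutant minus wild type on the log2 scale. The named features were chosen by their wild-type ratios, and the test reuses the same wild-type libraries. The directions below therefore follow in part from that choice. Over all 2927 mRNAs tested, the ratio was lower in the mutant for 282 (9.63%) and higher for 106 (3.62%). The ratio was lower in the mutant for the membrane and surface proteins HSP30 (−2.51), YCR061W (−1.86), PMA1 (−1.78), TPO2 (−1.39), TPO1 (−1.36), YGP1 (−1.35), PDR12 (−1.27), MRH1 (−1.06), BGL2 (−1.02) and PST1 (−0.96). It was also lower for the ER and sterol genes ERG4 (−1.67), ERG25 (−1.42), SEC61 (−0.89), HMG2 (−0.86), JEM1 (−0.80) and ERO1 (−0.70), for VCX1 (−1.01), STV1 (−0.80) and YPK9 (−0.77) of the vacuole and Golgi, and for URA2 (−1.03) and the repeated gene YHR054C (−2.88). It was higher in the mutant for YOR385W (1.83), DSE2 (1.58), CTS1 (1.55), HXT2 (1.24) and RNR3 (0.92). The antisense signal of EMP70 was lower (−1.93). HSP30 had 1174 to 1937 CPM in the mutant total lysates, against 147 to 348 CPM in wild type, so the strains also differed in its level before fractionation.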

How the results depend on the processing

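Over 17 alternatives, the named values kept direction and side of the threshold in 2711 cases, lost the threshold in 197 and reversed in 1 (GAS4, −0.076 with counterparts of which 0.5 lay inside the mRNA). With library totals 353 mRNAs were lower. With counterparts covering 0.8, 366 were higher and 192 lower. Without a count minimum 463 were higher and 827 lower, above 10 counts 523 and 759. For antisense signals, 737 rose and 65 fell above 10 counts, 120 and 11 above 100, and 729 and 71 without a minimum. The replicate block gave 840 mRNAs higher and 875 lower, 404 and 47 antisense signals and 480 mRNAs differing between strains; DESeq2 gave 680 and 678 mRNAs. Leaving out 1 library gave 412 to 692 mRNAs higher and 375 to 727 lower, 166 to 425 and 15 to 39 antisense signals, and 205 to 575 mRNAs differing between strains. Restricting mRNAs to counterparts over no other gene on their strand, chosen after seeing the data, gave 485 higher and 485 lower. List medians moved by no more than the spread between libraries in 606 of 695 cases.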
